A study of Homo sapiens with 9 samples.

Results

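RNA of LN229, an established human glioblastoma cell line, was compared between 24 h and 8 h of exposure to 500 µM sodium formate. The comparison uses 6 of the 9 libraries of the study, chosen by their labels: 3 from cells kept with formate for 8 h and 3 from cells kept with it for 24 h. The other 3 libraries came from untreated cells at 0 h and served to estimate the spread. What all groups shared was the LN229 line and its medium: glucose at 17 mM, glutamine at 2 mM and serum (fetal bovine) at 10%. Both sides of the comparison had formate, and no library from cells without formate at 8 h or 24 h was analysed here. The duration of formate and the time in culture therefore cannot be told apart. The replicates are labelled as separate samples, with nothing to say whether they came from separate cultures, so the p-values measure only the spread between these libraries, which may be technical.

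Formate carries a carbon unit into the folate cycle, where it is joined to tetrahydrofolate and used for purine, thymidylate and methionine synthesis. Cultured tumour cells also make and release it from serine by way of mitochondrial folate enzymes. Several programmes that RNA levels can follow in a growing culture have well known regulators: SREBP transcription factors act on sterol and fatty acid synthesis when membrane sterol is low, the MMB-FOXM1 and DREAM complexes act on mitotic genes, heat shock factors on cytosolic chaperones, and STAT and IRF factors on interferon-stimulated genes.

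The 6 libraries held between 22291821 and 23860813 counts each. Levels are CPM, that is, counts relative to the TMM-scaled library size, in the order of replicates 1, 2 and 3. The 50 most abundant genes took between 11.2% and 12.3% of the counts at 8 h and a smaller share at 24 h, down to 10.5%. On the leading principal component of the 6 libraries, which held 75.3% of the variance of the 500 most variable genes, the 8 h scores were -27.0, -8.08 and -8.11 and the 24 h scores 5.30, 16.1 and 21.8. Replicate 1 of 8 h thus stood apart from the other 2 libraries of 8 h, on the side away from 24 h. Replicate 1 of 0 h stood apart as well: its 50 most abundant genes took 12.7% of the counts, against 11.1% in replicates 2 and 3. For some genes the order was alike, as for SCD with 139.6, 258 and 279 CPM at 0 h and 153, 258 and 252 CPM at 8 h. For others it was not: replicate 1 of COL6A3 was the lowest at 0 h and the highest at 8 h. Correlations between libraries of the same number, and fits with that number as a block, are given further below. The cause of these orders was not tested. The glial and progenitor genes VIM and NES were abundant in every library (VIM from 3199 to 5040 CPM, NES from 904 to 1011 CPM), SOX2 lay between 67.2 and 103 CPM, and the mature astrocyte gene GFAP had at most 10 counts in a library. CDKN2A and CDKN2B had 0 counts in all 6 libraries. Defining markers of other cell types were near 0: PTPRC had at most 2 counts, PECAM1 at most 3 and EPCAM at most 1.

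Between 8 h and 24 h of formate, 434 genes rose and 262 fell, among 15273 tested. The called genes made up 4.56% of those tested, 2.84% higher and 1.72% lower, by edgeR's quasi-likelihood test at an adjusted p under 0.05. Changes of 2-fold or more were fitted for 151 of the higher and 77 of the lower genes, and of 4-fold or more for 16 and 14. The median change of all tested genes was 0.02 on the log2 scale, and 52.1% of them lay above 0. Complete separation of the 8 h from the 24 h libraries was seen for 5242 genes (34.3%), which include all 696 called genes. Among genes over 100 CPM, the lower calls outnumbered the higher (76 against 46 of 2436), whereas between 1 and 10 CPM the higher outnumbered the lower (126 against 45 of 3615). Protein-coding genes were called at 5.18% (409 higher and 245 lower of 12630) and long noncoding genes at 2.01% (21 and 16 of 1841). The calls of this fit, which has no replicate block, rested on single libraries. With edgeR, 0 genes passed when 8 h replicate 1 was left out (2078 had an unadjusted p under 0.05), and 0 when either 24 h replicate 2 (2446) or 24 h replicate 3 (2177) was. The count was 53 when 8 h replicate 3 was omitted, 372 when it was 8 h replicate 2, 1049 when it was 24 h replicate 1, and 2545 when it was untreated replicate 1. With the replicate number as a block, fits that left out a formate library called from 1179 to 2210 genes. The labels do not say whether these numbers pair the libraries. DESeq2's Wald test called 1486 genes, 835 higher and 651 lower, among them 684 of the 696.

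**Figure D1:**
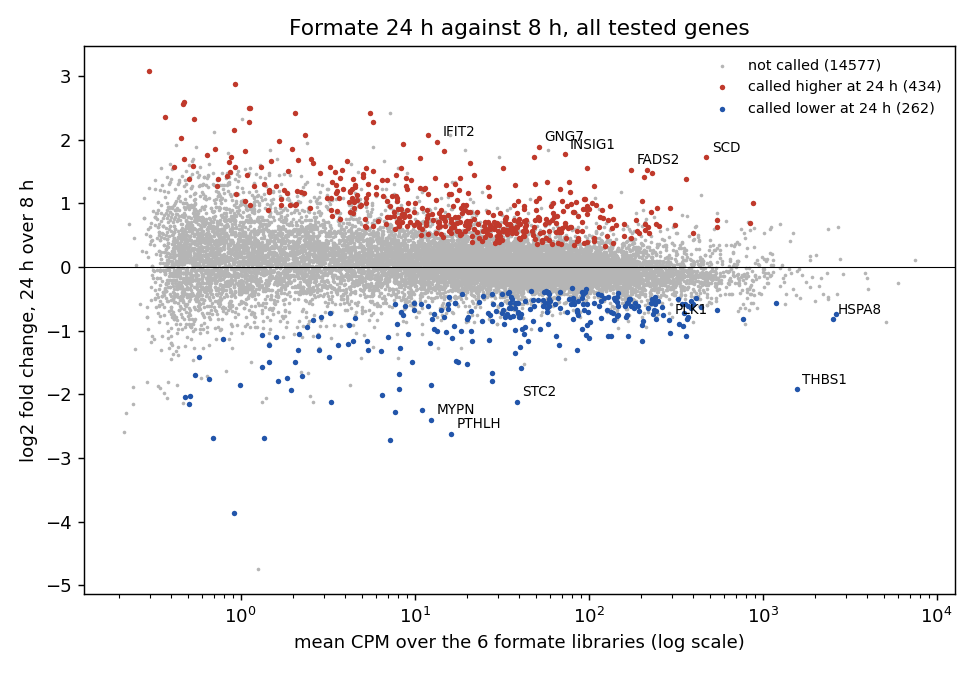
Fitted log2 fold change of formate 24 h over 8 h (vertical axis) against mean CPM over the 6 formate libraries (horizontal log axis), 1 point per tested gene. The 434 genes called higher (red) and 262 called lower (blue) by edgeR lie over the whole range of levels, and 14577 genes were not called (grey).

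Genes of sterol and fatty acid synthesis were higher at 24 h. Of 21 tested enzymes of cholesterol synthesis, 7 rose and 0 fell (median log2 fold change 0.33). Of 19 genes of sterol sensing, uptake and export, 6 rose and 0 fell (median 0.30), and of 24 genes of fatty acid synthesis, desaturation and elongation, 7 rose and 0 fell (median 0.47). Those that rose made up 33.3%, 31.6% and 29.2% of these lists, against 2.84% over all tested genes, where the median was 0.02. Without replicate 1 of 8 h, these medians were 0.31, 0.31 and 0.43, and the sterol sensing median was 0.20 without replicate 3 of 24 h.

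SCD (ENSG00000099194, chr10:100347124-100364834, plus strand on GRCh38), the stearoyl-CoA desaturase that makes oleate, stood at 153, 258 and 252 CPM at 8 h and 656, 769 and 766 CPM at 24 h. Its groups did not overlap, with a log2 fold change of 1.72 ± 0.25 (SE) and an adjusted p of 0.0171. FADS2, the delta-6 desaturase of polyunsaturated fatty acids, stood at 74.6, 100.4 and 94.7 CPM at 8 h and 218, 279 and 283 CPM at 24 h, with a log2 fold change of 1.53 ± 0.16 (SE) and an adjusted p of 0.00869. All 24 h libraries lay above all 8 h libraries for both desaturases, and replicate 1 of 8 h was the lowest. FADS1, the neighbouring delta-5 desaturase, was nearly level within each group (162, 159.5 and 156 CPM at 8 h and 229, 228 and 232 CPM at 24 h), and rose with a log2 fold change of 0.53 ± 0.09 (SE) and an adjusted p of 0.0183. FASN, the fatty acid synthase, stood at 676, 589 and 671 CPM at 8 h and 997, 1033 and 1095 CPM at 24 h, with a log2 fold change of 0.69 ± 0.13 (SE) and an adjusted p of 0.0231. ACACA, which makes malonyl-CoA, and ACSS2, which makes acetyl-CoA from acetate, rose by 0.62 and 0.95 on the log2 scale. ELOVL2, an elongase of long polyunsaturated chains, rose by 0.62. ACLY, which makes acetyl-CoA from citrate, had a log2 fold change of 0.33 and did not pass (adjusted p = 0.0751, edgeR).

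INSIG1 (ENSG00000186480, chr7:155297776-155310235, plus strand), the membrane protein that holds SREBP in the endoplasmic reticulum when sterol is plentiful, was the most changed member of the sterol lists. It stood at 19.2, 36.4 and 43.3 CPM at 8 h and 108, 109 and 121 CPM at 24 h, with a log2 fold change of 1.77 ± 0.30 (SE) and an adjusted p of 0.0183. The 24 h libraries lay close together, whereas replicate 1 of 8 h had less than the other 8 h libraries. DHCR7, the last reductase of cholesterol synthesis, had among the smallest p-values of all genes: it stood at 62.4, 69.5 and 69.1 CPM at 8 h and 121, 125 and 131 CPM at 24 h, with a log2 fold change of 0.91 ± 0.10 (SE) and an adjusted p of 0.00908. HMGCS1, which condenses acetyl-CoA units at the entry to the pathway, stood at 46.5, 60.4 and 61.5 CPM at 8 h and 105, 121 and 115 CPM at 24 h and rose by 1.02 on the log2 scale. MVD, IDI1, FDFT1, SQLE and MSMO1, enzymes further along the pathway, rose too, IDI1 by 0.99 and the squalene epoxidase SQLE by 0.80.

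The genes for the transcription factors themselves were among those that rose. SREBF2, which drives cholesterol synthesis, stood at 109, 144 and 148 CPM at 8 h and 266, 267 and 289 CPM at 24 h, with a log2 fold change of 1.03 ± 0.16 (SE) and an adjusted p of 0.0177. SREBF1, which drives fatty acid synthesis, stood at 51.4, 82.4 and 89.01 CPM at 8 h and 153, 139 and 148 CPM at 24 h, with a log2 fold change of 0.98 ± 0.21 (SE) and an adjusted p of 0.0314. SCARB1, the receptor for high-density lipoprotein, STARD4, a carrier of cholesterol within the cell, and ABCG1, a cholesterol exporter, also rose. The exons of HMGCS1, IDI1 and SREBF1 are overlapped over 15%, 14.8% and 6.92% of their length by a gene on the opposite strand, whose reads cannot be told apart where the strand setting of the counting is not known. The promoter of SREBF2 is shown because, of 16 promoters of the sterol sensing list, it was the 1 that held the sterol regulatory element letters TCACNCCAC on either strand. The stretch lies at chr22:41832955-41833015, plus strand, from RefSeq on GRCh38.p14, and the capitals mark the match.
SREBF2: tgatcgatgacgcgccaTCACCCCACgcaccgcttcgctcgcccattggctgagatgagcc
Of all 27305 RefSeq promoters (250 bases before to 50 after a start site), 1.15% held these letters, against 0 of 16 promoters of the cholesterol enzymes and 6.25% of the sterol sensing list.

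Genes of lipid use and storage were called in both directions. Of 29 genes of fatty acid uptake and oxidation, 1 rose (SLC27A1, 0.78) and 1 fell (SLC27A4, -0.65), both of them fatty acid transport proteins, and the median was 0.11. The share called was 6.90%, against 4.56% over all tested genes, and 12.5% (2 of 16) for glycerolipid synthesis and lipid droplets. Of these 16 genes, DGAT2, an enzyme that completes triglycerides, rose by 0.55. PLIN3, a droplet coat protein, had a log2 fold change of -0.70 and fell (adjusted p = 0.0177, edgeR). DGAT2 and PLIN3 have opposite-strand overlaps of 6.83% and 17.8% of their exons.

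**Figure D2:**
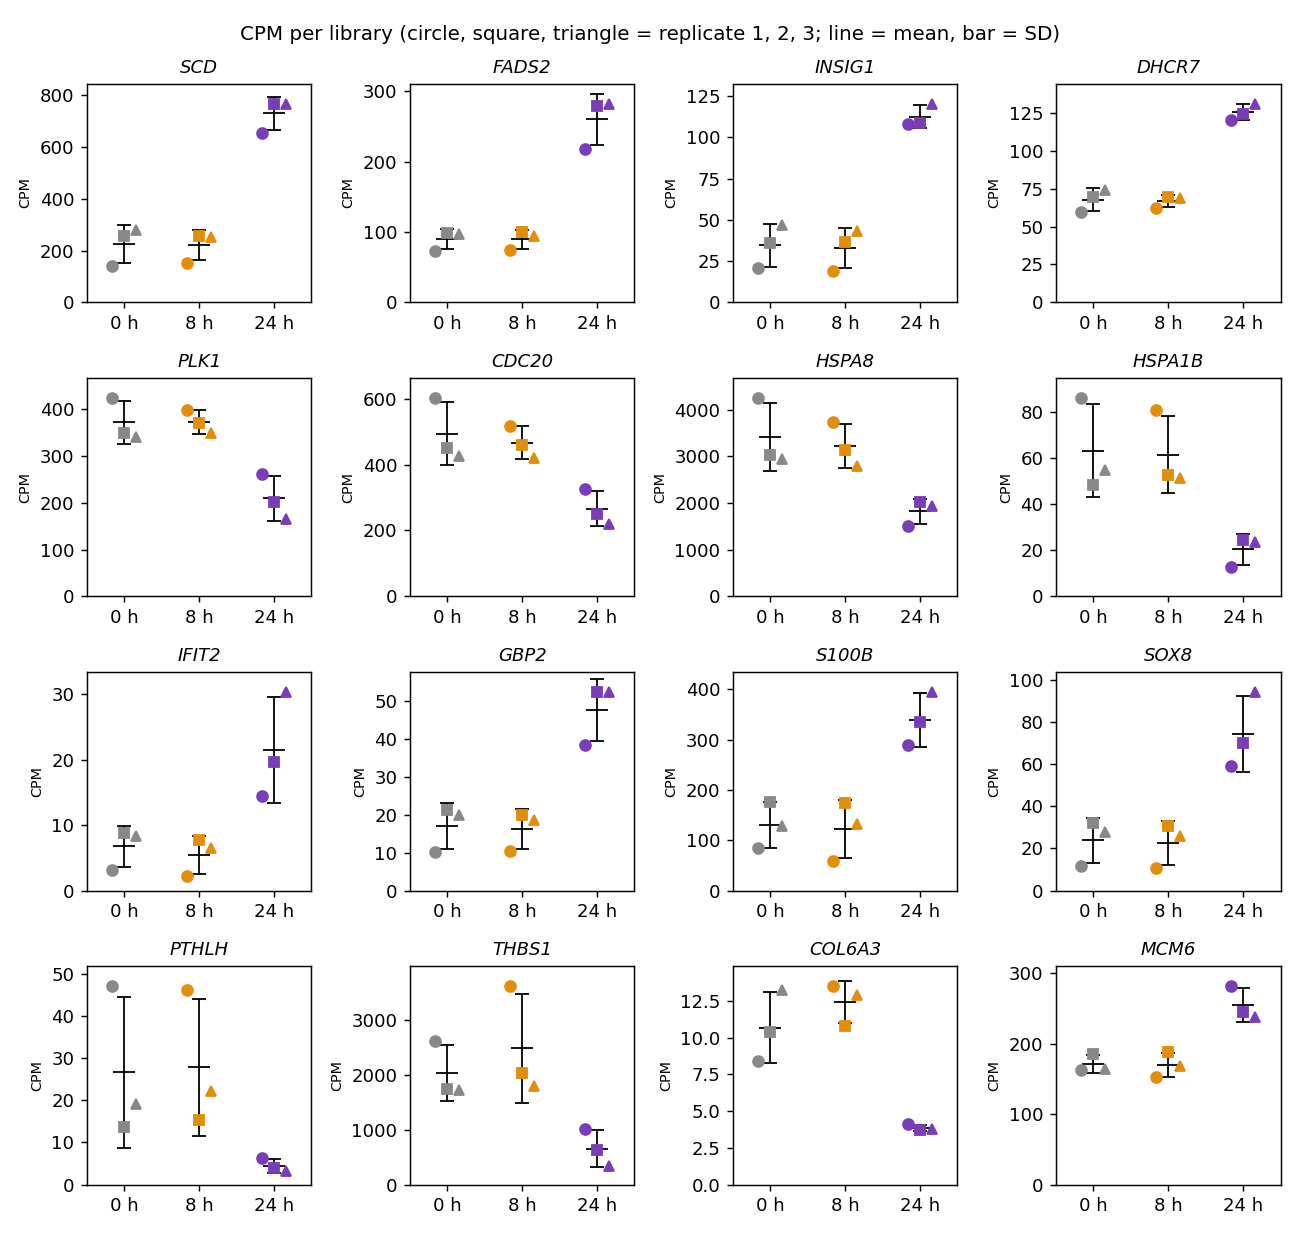
CPM of 16 genes in each of the 9 libraries at 0 h, 8 h and 24 h, with circles, squares and triangles for replicates 1, 2 and 3, a line for the group mean and bars for the SD. The genes were picked from the called genes, and all 696 called genes have 8 h and 24 h libraries that do not overlap. By this choice the 24 h libraries lie outside the range of the 8 h libraries in every panel. Replicate 1 of 8 h is often the farthest from 24 h.

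Genes of mitosis were lower at 24 h. The 3 mitotic lists held 105 tested genes, of which 26 fell and 0 rose, and 100 had a fitted change below 0 (median -0.42). By list, 10 of 29 genes of mitotic entry and exit fell (median -0.55, all 29 below 0), 13 of 35 of the spindle and cytokinesis (median -0.47) and 3 of 41 of the kinetochore and checkpoint (median -0.35). Those that fell made up 34.5%, 37.1% and 7.32% of these lists, against 1.72% over all tested genes, of which 47.9% lay below 0. Without replicate 1 of 8 h, 97 of the 105 lay below 0, with a median of -0.38.

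PLK1 (ENSG00000166851, chr16:23677656-23690367, plus strand), the kinase that starts centrosome maturation and mitotic exit, stood at 399.5, 369.9 and 349 CPM at 8 h and 262, 201 and 166 CPM at 24 h. The groups did not overlap, replicate 3 of 24 h was the lowest, and the difference gave a log2 fold change of -0.83 ± 0.16 (SE) and an adjusted p of 0.0243. CDC20, the activator of the anaphase-promoting complex, stood at 518, 459.7 and 419 CPM at 8 h and 325, 251.3 and 221 CPM at 24 h, with a log2 fold change of -0.81 ± 0.17 (SE) and an adjusted p of 0.0296. CCNB1, the mitotic cyclin, stood at 488, 471 and 451 CPM at 8 h and 334, 255 and 225 CPM at 24 h, with a log2 fold change of -0.79 ± 0.16 (SE) and an adjusted p of 0.0266. For all 3 genes, replicate 1 was the highest and replicate 3 the lowest of the 24 h libraries. Of the same list, AURKA, a spindle pole kinase, CDC25C, the phosphatase that activates the mitotic kinase, and GTSE1, a microtubule-binding protein, had log2 fold changes of -0.75, -0.56 and -0.64 and fell.

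Among genes of the spindle, NEK2, a centrosome kinase, stood at 149.6, 159 and 159 CPM at 8 h and 107, 99.96 and 86.7 CPM at 24 h, with a log2 fold change of -0.67 ± 0.10 (SE) and an adjusted p of 0.0171. DLGAP5, which stabilises spindle fibres, and KIF18A, a motor that limits their length, had log2 fold changes of -0.64 and -0.58. CEP55, needed for the final cut between daughter cells, and KIF20A, a motor of the midzone, had changes of -0.69 and -0.63. All of these fell. HMMR, a spindle-associated protein, stood at 195, 208 and 201 CPM at 8 h and 159.9, 141 and 122 CPM at 24 h, with a log2 fold change of -0.51 ± 0.11 (SE) and an adjusted p of 0.0331. At the kinetochore, BUB1, a checkpoint kinase, and CENPA, the centromeric histone, fell with changes of -0.53 and -0.65. MKI67 and TOP2A, widely used markers of cycling cells, did not pass: their log2 fold changes were -0.41 and -0.34, with adjusted p of 0.281 and 0.172 (edgeR). The libraries overlapped for MKI67, which stood at 1083, 788 and 662 CPM at 8 h and 808, 629 and 469 CPM at 24 h. In bulk RNA, fewer cells in mitosis and less RNA per such cell cannot be told apart. PLK1, CDC25C and KIF20A have opposite-strand overlaps of 12.5%, 8.78% and 5.05% of their exons, and CDC20 and AURKA have annotated pseudogene copies.

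Many mitotic promoters share a pair of short elements, a CCAAT box and a cell cycle gene homology region (CHR, letters TTTGAA). Stretches from 80 bases before the start site to the base before it are shown for 3 mitotic genes that fell, with matches to CCAAT (or ATTGG) and TTTGAA (or TTCAAA) in capitals. They come from RefSeq on GRCh38.p14, all on the plus strand: PLK1 at chr16:23678809-23678888, plus strand; HMMR at chr5:163460552-163460631, plus strand; CDC20 at chr1:43358901-43358980, plus strand.
PLK1: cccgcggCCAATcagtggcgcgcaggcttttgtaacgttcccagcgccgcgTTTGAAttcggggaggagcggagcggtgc
HMMR: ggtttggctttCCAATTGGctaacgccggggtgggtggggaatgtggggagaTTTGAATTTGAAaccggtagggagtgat
CDC20: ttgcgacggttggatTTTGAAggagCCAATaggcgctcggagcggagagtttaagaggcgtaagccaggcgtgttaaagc
In PLK1 and HMMR the CCAAT box lies upstream of the CHR, and in CDC20 downstream of it. In HMMR the letters CCAAT and ATTGG overlap, and the CHR letters occur in tandem. The CHR letters were found on either strand in 15.4% of all 27305 promoters and in 10.1% of the 11151 tested genes with a promoter in the table. They were found in 56.5% of the mitotic entry list, 71.9% of the spindle list and 51.5% of the kinetochore list. They were also in 23.3% of the genes that fell and 7.42% of those that rose. Outside the 3 lists, 31 of 1068 tested genes with the letters fell (2.90%), against 148 of 9995 without them (1.48%). Within the lists, 16 of 53 genes with the letters fell, against 7 of 35 without. CCAAT was found in 35.7% of all promoters and in 78.3% of the mitotic entry list. A match is a description of the sequence, not evidence of binding.

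Of 56 tested replication genes, 3 rose and 0 fell (median 0.10), and this share of 5.36% is near the 4.56% called over all tested genes. The median became 0.03 when 24 h replicate 1 was left out, 0.06 when 8 h replicate 3 was and 0.17 when 24 h replicate 3 was. MCM6, a subunit of the replicative helicase, stood at 153, 188 and 169 CPM at 8 h and 282, 244 and 237 CPM at 24 h, with a log2 fold change of 0.58 ± 0.11 (SE) and an adjusted p of 0.0248. DTL, which loads a ubiquitin ligase onto replicating DNA, rose by 0.43. PCNA, the sliding clamp, had a change of 0.43 and did not pass (adjusted p = 0.0521, edgeR). Of 26 genes of G1 cyclins, their inhibitors, E2F and pocket proteins, 5 rose and 1 fell (23.1% called). CCNE2, a cyclin of S phase entry, stood at 29.2, 33.4 and 33.9 CPM at 8 h and 58.8, 53.7 and 46.8 CPM at 24 h, with a log2 fold change of 0.72 ± 0.14 (SE) and an adjusted p of 0.0240. SKP2, E2F2 and TFDP2 rose too. CCND1, the cyclin of early G1, was the 1 that fell: it stood at 1150, 956 and 859 CPM at 8 h and 685, 576 and 428 CPM at 24 h, with a log2 fold change of -0.81 ± 0.18 (SE) and an adjusted p of 0.0342. CDKN1A, the inhibitor p21 and a p53 target, stood at 104, 98.7 and 89.7 CPM at 8 h and 219.6, 134 and 135 CPM at 24 h, so that replicate 1 of 24 h was well above the other two, and it rose by 0.74. It was 1 of 3 p53 targets that rose among 27 (11.1% called, 0 fell, median 0.26), the others being ZMAT3 (0.45) and TP53INP1 (1.44). The letters TTTGGCGC or TTTCGCGC of E2F sites were found on either strand in 22.4% of the replication promoters and 1.18% of all promoters. CCNE2 and CCND1 have opposite-strand overlaps of 37.1% and 10.3%.

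**Figure D3:**
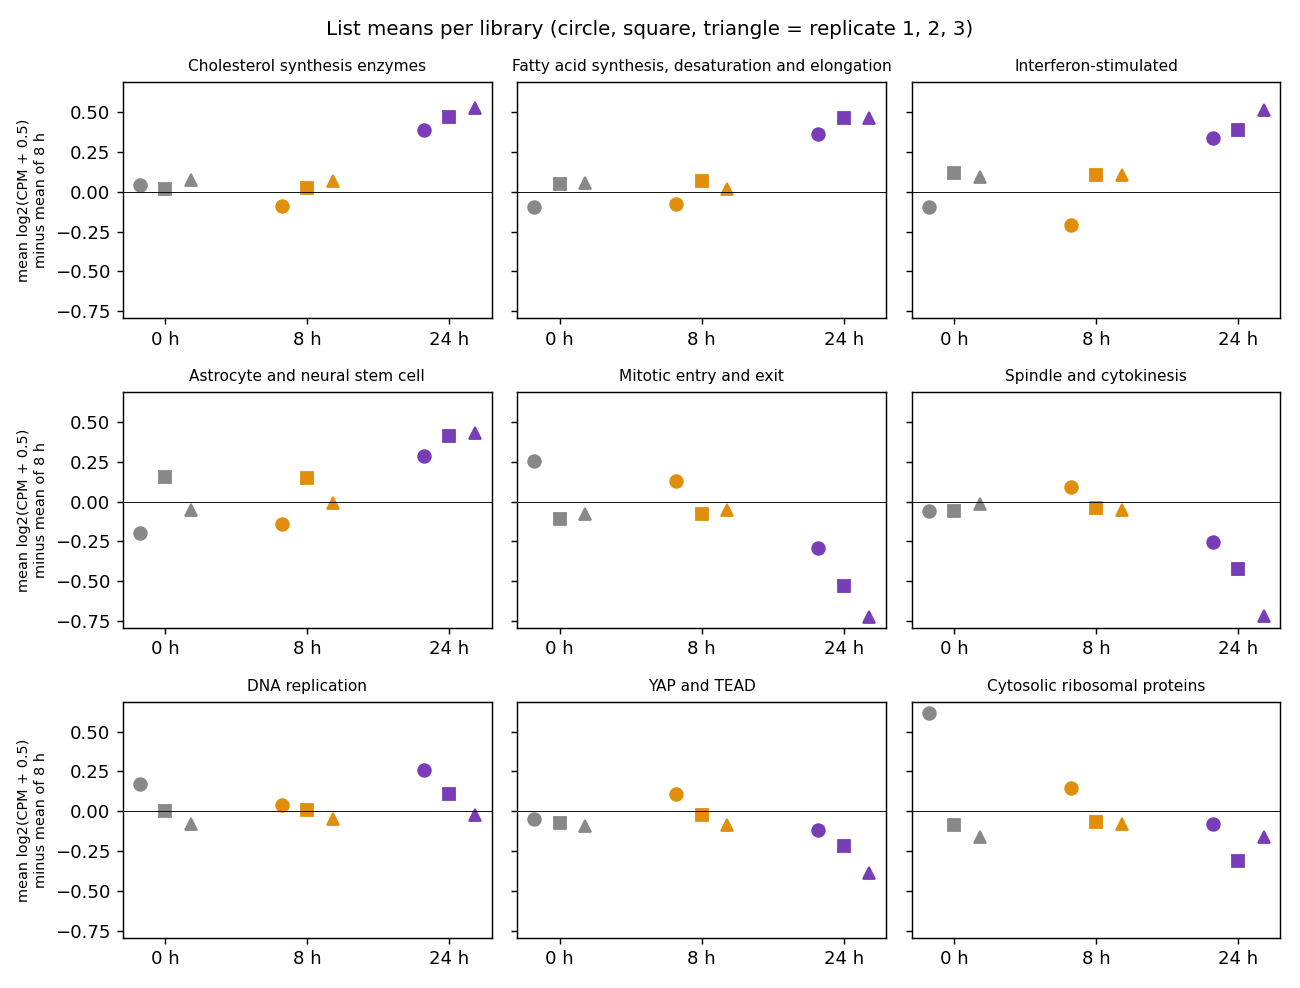
Mean log2(CPM + 0.5) of 9 gene lists in each library minus the mean of the 8 h libraries, with circles, squares and triangles for replicates 1, 2 and 3. The spindle list lies at -0.25, -0.42 and -0.72 in replicates 1, 2 and 3 of 24 h, and the cholesterol list at 0.39, 0.47 and 0.52.

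Cytosolic chaperones were lower at 24 h, whereas genes of the endoplasmic reticulum stress response were not called. Of 9 tested heat shock chaperones, 7 fell and all 9 lay below 0 (median -0.74; -0.67 without replicate 1 of 8 h). Of 19 genes of the endoplasmic reticulum, 0 passed and the median was -0.03. Both are parts of a list of 31 tested genes, and the split into parts was not among the planned lists. The list as a whole had a median of -0.10, with 22 genes below 0 and 9 above. Of its 31 genes, 7 were called lower (22.6%, against 1.72% over all tested genes) and 0 higher. With edgeR 10 had an unadjusted p under 0.05, and DESeq2 called 7.

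HSPH1, a nucleotide exchange factor for the 70-kDa chaperones, stood at 353, 303 and 273 CPM at 8 h and 171, 178 and 178 CPM at 24 h, with a log2 fold change of -0.82 ± 0.12 (SE) and an adjusted p of 0.0171. HSPA8, the constitutive member of that family, stood at 3729, 3145 and 2802 CPM at 8 h and 1515, 2015 and 1939 CPM at 24 h, with a log2 fold change of -0.82 ± 0.18 (SE) and an adjusted p of 0.0331. Its replicate 1 was the highest of the 8 h libraries and the lowest of the 24 h libraries. HSPA1B, the inducible member, showed the same order with 80.8, 52.5 and 51.5 CPM at 8 h and 12.8, 24.7 and 23.8 CPM at 24 h, and a log2 fold change of -1.59 ± 0.28 (SE) and an adjusted p of 0.0211. HSPA1A stood at 72.9, 51.7 and 46.6 CPM at 8 h and 16.4, 26.5 and 28.8 CPM at 24 h. It is nearly identical to HSPA1B, so the split of reads between these genes is uncertain, as is the level of HSPA8, which has 17 annotated pseudogene copies. HSP90AA1, the inducible cytosolic HSP90, and the J-domain proteins DNAJB1 and DNAJA1 fell with log2 fold changes of -0.74, -0.74 and -0.59. HSPA5, the chaperone of the endoplasmic reticulum, stood at 1478, 1428 and 1382 CPM at 8 h and 1492, 1365 and 1322 CPM at 24 h (log2 fold change -0.04, adjusted p = 0.873, edgeR). The promoters of HSPA8 and HSPA1A are shown as examples of the heat shock element, with the letters GAANNTTC or TTCNNGAA in capitals, a motif chosen after the values were seen. They lie at chr11:123062156-123062216, minus strand, and chr6:31815413-31815473, plus strand, from RefSeq on GRCh38.p14.
HSPA8: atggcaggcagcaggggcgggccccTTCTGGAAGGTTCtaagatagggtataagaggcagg
HSPA1A: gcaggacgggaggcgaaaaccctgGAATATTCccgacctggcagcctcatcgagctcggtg
These letters were in 13.7% of all promoters, 17.2% of the list of the unfolded protein response and heat shock, and 13.4% of the genes that fell.

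Interferon-stimulated genes were higher at 24 h. Of 48 tested, 8 rose and 0 fell, and 42 lay above 0 (median 0.44). Those that rose made up 16.7%, against 2.84% over all tested genes, of which 52.1% lay above 0. Without replicate 1 of 8 h the median was 0.31. IFIT2 (ENSG00000119922, chr10:89283694-89309276, plus strand), an antiviral RNA-binding protein, stood at 2.18, 7.79 and 6.42 CPM at 8 h and 14.4, 19.7 and 30.4 CPM at 24 h, with a log2 fold change of 1.97 ± 0.45 (SE) and an adjusted p of 0.0350. Its groups did not overlap, replicate 1 of 8 h was the lowest library and replicate 3 of 24 h the highest. IFIT3, its relative, stood at 7.85, 12.7 and 13.3 CPM at 8 h and 18.9, 19.4 and 21.6 CPM at 24 h, with a log2 fold change of 0.82 ± 0.19 (SE) and an adjusted p of 0.0389. IFIH1, a sensor of double-stranded RNA, stood at 4.63, 7.44 and 6.51 CPM at 8 h and 10.1, 10.7 and 12.1 CPM at 24 h, with a log2 fold change of 0.82 ± 0.18 (SE) and an adjusted p of 0.0310. The ubiquitin ligases HERC5 and HERC6 and the membrane proteins IFITM2 and IFITM3 rose as well, by 0.52, 0.72, 0.83 and 0.69. ISG15, the modifier that HERC5 attaches, was not called, with a change of 0.54 (adjusted p = 0.236, edgeR). Of 18 genes of MHC class I and peptide loading, 0 passed with edgeR and 0 with DESeq2, 4 had an unadjusted p under 0.05, and the median was 0.07. IFITM3 has an opposite-strand overlap of 21.3%.

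Promoters of IFIT3 and HERC5 are shown for their interferon-stimulated response elements, with matches in capitals. A match is GAAA, any 2 bases and GAAA again, on either strand, so it reads TTTC, any 2 bases and TTTC on the other strand. They lie at chr10:89327837-89327907, plus strand, and chr4:88456989-88457059, plus strand, from RefSeq on GRCh38.p14.
IFIT3: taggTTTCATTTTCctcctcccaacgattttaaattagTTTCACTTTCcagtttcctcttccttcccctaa
HERC5: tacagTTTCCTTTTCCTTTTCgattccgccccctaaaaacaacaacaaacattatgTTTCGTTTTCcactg
These letters were in 58.3% of the interferon list and 9 of 15 promoters of the MHC class I list, against 3.65% of all promoters. Within the interferon list, 4 of 21 genes with the letters rose and 1 of 15 without them.

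Several genes of astrocytes and neural stem cells were higher at 24 h. Of 20 tested, 5 rose and 1 fell (median 0.32, and 0.13 without replicate 1 of 8 h). The shares were 25% and 5%, against 2.84% and 1.72% over all tested genes. Of the 20, 14 lay above 0 and 6 below. GFAP, AQP4, SLC1A2 and ALDH1L1 were among the list entries that could not be tested. FABP7, the brain fatty acid-binding protein of radial glia, stood at 33.96, 52.6 and 44.6 CPM at 8 h and 86.8, 109.8 and 136 CPM at 24 h, with a log2 fold change of 1.34 ± 0.18 (SE) and an adjusted p of 0.0154. S100B, a calcium-binding protein of glia, stood at 59.2, 174 and 133 CPM at 8 h and 289, 335 and 396 CPM at 24 h, with a log2 fold change of 1.48 ± 0.34 (SE) and an adjusted p of 0.0382. KCNJ10, the inward rectifier potassium channel of glia, stood at 3.995, 10.1 and 5.53 CPM at 8 h and 14.8, 29.3 and 25.4 CPM at 24 h, with a log2 fold change of 1.82 ± 0.43 (SE) and an adjusted p of 0.0384. For all 3 the groups did not overlap, and replicate 1 was the lowest library of each group. NFIA, a transcription factor of glial fate, rose by 1.19 and NDRG2 by 0.64. GJA1, which encodes the gap junction protein connexin 43, went the other way: it stood at 66.01, 61.5 and 57.4 CPM at 8 h and 30.1, 36.9 and 35.5 CPM at 24 h, with a log2 fold change of -0.85 ± 0.10 (SE) and an adjusted p of 0.0129. SOX8, a glial transcription factor outside this list, stood at 10.8, 30.8 and 25.8 CPM at 8 h and 58.96, 69.97 and 94.3 CPM at 24 h, with a log2 fold change of 1.73 ± 0.39 (SE) and an adjusted p of 0.0346. VIM and SOX2 were lower in each 24 h library than in each 8 h library. VIM stood at 5040, 4312 and 4242 CPM at 8 h and 3925, 3539 and 3199 CPM at 24 h. SOX2 stood at 81.9, 78.7 and 103 CPM at 8 h and 71.4, 67.2 and 69.8 CPM at 24 h. Separation of the groups, in either direction, was seen for 34.3% of tested genes.

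Genes of contractility and secreted or matrix proteins were mixed, with large falls among a few. MYPN, a sarcomeric protein that binds actin, stood at 31.1, 15.7 and 15.9 CPM at 8 h and 5.92, 4.14 and 1.82 CPM at 24 h, with a log2 fold change of -2.40 ± 0.39 (SE) and an adjusted p of 0.0183. THBS1, a matrix glycoprotein that activates TGF-beta, stood at 3631, 2048 and 1795 CPM at 8 h and 1010, 633 and 336 CPM at 24 h, with a log2 fold change of -1.92 ± 0.37 (SE) and an adjusted p of 0.0248. COL6A3, a chain of collagen VI, stood at 13.5, 10.8 and 12.9 CPM at 8 h and 4.10, 3.71 and 3.77 CPM at 24 h, with a log2 fold change of -1.68 ± 0.18 (SE) and an adjusted p of 0.00869, and its 24 h libraries lay within a narrow range. Replicate 1 was the highest of the 8 h libraries for MYPN and THBS1.

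By list, 1 of 41 actin and SRF genes rose (CSRP1, 0.73) and 2 fell (MYPN and the smooth muscle gene TAGLN, -1.32). The median was -0.25, with 34 of 41 below 0. Of 35 YAP and TEAD genes, 2 rose and 3 fell (median -0.21): AJUBA, NT5E and CRIM1 fell, with log2 fold changes of -1.35, -1.08 and -1.09, whereas TEAD2 and RBMS3 rose. CCN1, a classical target of YAP, had a change of -1.44 and did not pass (adjusted p = 0.0611, edgeR). Of 35 TGF-beta and BMP genes, 1 rose (the inhibitor ID4, 0.97) and 3 fell, among them THBS1 and the ligase SMURF2. Of 38 collagens and other matrix genes, 2 rose (LAMA4, 0.63, and DCN, 0.87) and 2 fell (COL6A3 and COL13A1). Integrins ITGA3 and ITGA5 fell and the cadherin CDH11 rose among 24 adhesion genes. Of 23 metalloproteinases, inhibitors and plasminogen activators, 1 rose (MMP17) and 3 fell, among them MMP24 and ADAM19. In the list of NF-kB, cytokines and chemokines (30 tested), ICAM1 rose and IL11, LIF and BIRC3 fell. The shares called were 7.32% for actin and SRF, 14.3% for YAP and TEAD, 11.4% for TGF-beta and BMP and 10.5% for the matrix list. They were 12.5% for adhesion, 17.4% for the metalloproteinase list and 13.3% for the NF-kB list, against 4.56% over all tested genes. The TEAD letters CATTCC were found on either strand in 7 of 26 promoters of the YAP and TEAD list and in 3836 of all 27305. The CArG box was found in 23.7% of the actin and SRF promoters and in 1.29% of all promoters. THBS1, TAGLN and ICAM1 have opposite-strand overlaps of 7.58%, 11.4% and 23.6%.

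**Figure D4:**
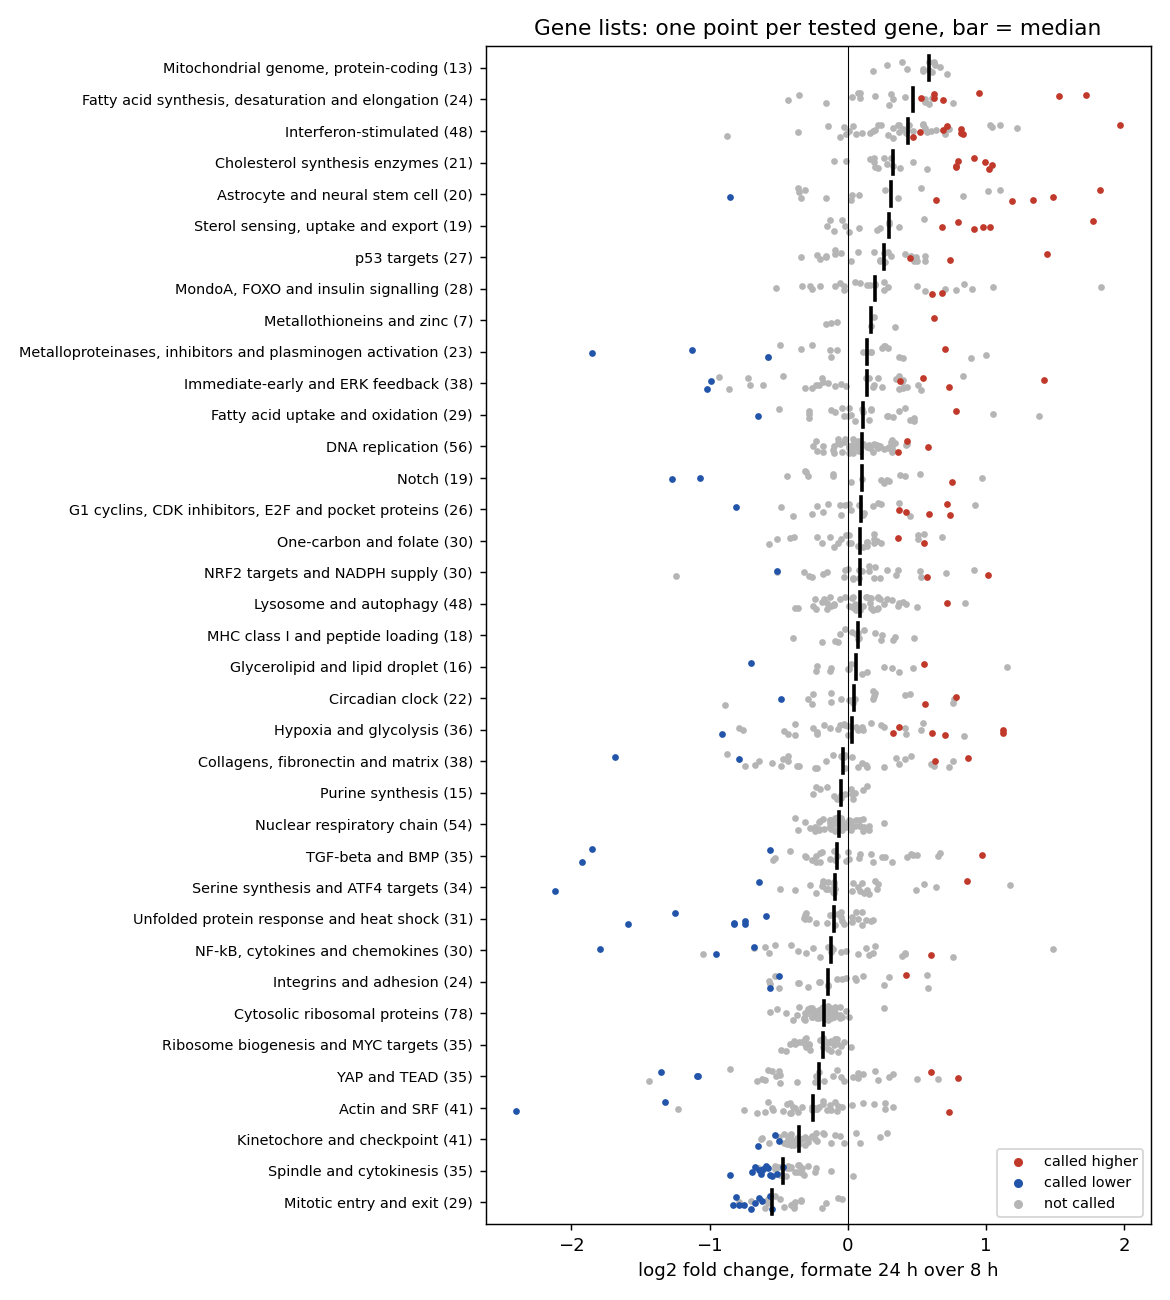
Log2 fold change of every tested gene on 37 gene lists, 1 point per gene, with the number tested in brackets and a bar for the list median; red and blue mark genes called higher and lower by edgeR. The mitotic lists lie to the left of 0 and the lipid synthesis and interferon lists to the right. The mitochondrial genome list has the highest median of those plotted and no called gene. The list of other cell types (5 tested), whose median of 1.05 was higher, is not plotted.

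Folate enzymes handle formate itself. Of 30 genes of 1-carbon and folate metabolism, 2 rose and 0 fell (median 0.09), and this share of 6.67% is near the 4.56% called over all tested genes. SHMT1, the cytosolic enzyme that interconverts serine and glycine, stood at 48.9, 64.8 and 55.4 CPM at 8 h and 81.8, 81.6 and 84.2 CPM at 24 h, with a log2 fold change of 0.55 ± 0.11 (SE) and an adjusted p of 0.0248. MTHFD1, which joins formate to tetrahydrofolate in the cytosol, stood at 216, 193 and 181 CPM at 8 h and 214, 196 and 174 CPM at 24 h, with a log2 fold change of -0.01 ± 0.12 (SE) and an adjusted p of 0.966. Its groups overlapped. MTHFD1L, which releases formate in mitochondria, stood at 102, 82.2 and 77.5 CPM at 8 h and 71.6, 54.4 and 49.5 CPM at 24 h, with a log2 fold change of -0.57 ± 0.21 (SE) and an adjusted p of 0.127, and did not pass. SHMT2 and MTHFD2 had log2 fold changes of -0.19 and -0.05. Of 15 purine synthesis genes, 0 passed with edgeR, 0 with DESeq2, and 0 had an unadjusted p under 0.05 (median -0.05). Among 34 genes of serine synthesis and ATF4 targets (8.82% called), GDF15 rose by 0.86 and ATF5 and STC2 fell. STC2, a secreted glycoprotein, stood at 88.2, 51.1 and 49.6 CPM at 8 h and 21.4, 14.3 and 7.75 CPM at 24 h, with a log2 fold change of -2.12 ± 0.35 (SE) and an adjusted p of 0.0183. MTHFD1, SHMT2 and MTHFD2 have opposite-strand overlaps of 11%, 9.51% and 33.2%.

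Other metabolic and signalling lists held a few called genes each. In the hypoxia and glycolysis list (36 tested, 6 higher and 1 lower), EPAS1, ALDOC, BNIP3L, NDRG1, HK2 and PFKM rose, EPAS1 by 1.12. The glucose transporter SLC2A1 stood at 299, 259 and 236 CPM at 8 h and 186, 128 and 107 CPM at 24 h and fell, with a log2 fold change of -0.91 ± 0.18 (SE) and an adjusted p of 0.0250. NQO1, a quinone reductase, and IDH1, a source of NADPH, rose by 1.01 and 0.57 and GCLM, of glutathione synthesis, fell with a change of -0.51 among 30 NRF2 genes. Of 38 immediate-early and ERK feedback genes, 4 rose and 2 fell: SPRY4, an inhibitor of ERK signalling, stood at 87.8, 139 and 115 CPM at 8 h and 240.3, 333 and 340.5 CPM at 24 h, with a log2 fold change of 1.42 ± 0.23 (SE) and an adjusted p of 0.0183. EGR1, JUNB and DUSP6 rose as well. MYC stood at 24.2, 18.1 and 18.4 CPM at 8 h and 10.9, 10.3 and 8.71 CPM at 24 h, with a log2 fold change of -1.02 ± 0.20 (SE) and an adjusted p of 0.0250, and FOSL2 fell as well. In the circadian list of 22, NR1D2 and BHLHE40 rose and PER2 fell, with changes of 0.78, 0.56 and -0.48. The Notch ligand JAG1 and the glycosyltransferase MFNG fell (-1.07 and -1.27) and the target HEY2 rose among 19. INSR and TRIB1 rose among 28 genes of MondoA, FOXO and insulin signalling, WIPI1 among 48 of lysosome and autophagy and MT1X among 7 metallothionein and zinc genes. The shares called in these last 3 lists were 7.14%, 2.08% and 14.3%, against 4.56% over all tested genes. They were 19.4% for hypoxia and glycolysis, 10% for NRF2, 15.8% for the immediate-early list, 13.6% for the circadian list and 15.8% for Notch. NQO1, WIPI1 and JUNB have opposite-strand overlaps of 17.7%, 28.1% and 14.2%.

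RNA from the mitochondrial genome was higher at 24 h as a share, with no gene called. It made up 1.07%, 0.725% and 1.43% of the counts at 8 h and 1.56%, 1.65% and 1.81% at 24 h, so the groups did not overlap. All 13 protein-coding genes lay above 0 (median 0.59), but the median was 0.35 with 12 above 0 when replicate 2 of 8 h was left out, and 0.82 when replicate 3 of 8 h was. With all libraries 0 passed with edgeR, 9 had an unadjusted p under 0.05, and DESeq2 called 2. MT-ND4, a subunit of complex I, stood at 2118, 1529 and 2689 CPM at 8 h and 3124, 3351 and 3363 CPM at 24 h, with a log2 fold change of 0.63 ± 0.22 (SE) and an adjusted p of 0.114. Nuclear copies of mitochondrial genes make their levels uncertain. The 54 nuclear genes of the respiratory chain had a median of -0.07, 0 passed with either tool and 1 had an unadjusted p under 0.05. Of 78 cytosolic ribosomal protein genes, 76 lay below 0 with a median of -0.17. With edgeR and with DESeq2 0 of them passed, and 1 had an unadjusted p under 0.05. Of 35 ribosome biogenesis and MYC target genes, 34 lay below 0 (median -0.18), 0 passed with either tool and 2 had an unadjusted p under 0.05.

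Of the called genes, 555 stood on none of the lists, and some of the largest changes were among them. GNG7 (ENSG00000176533, chr19:2511219-2702709, minus strand), a G protein gamma subunit, stood at 13.3, 27.6 and 25.1 CPM at 8 h and 57.1, 81.3 and 107 CPM at 24 h, with a log2 fold change of 1.89 ± 0.30 (SE) and an adjusted p of 0.0177. LGI4, a secreted protein of peripheral myelination, stood at 0.454, 2.58 and 2.21 CPM at 8 h and 4.40, 9.49 and 14.3 CPM at 24 h, with a log2 fold change of 2.42 ± 0.55 (SE) and an adjusted p of 0.0350. MYCN, the MYC family transcription factor, stood at 0.681, 2.58 and 2.64 CPM at 8 h and 6.68, 9.58 and 12.4 CPM at 24 h, with a log2 fold change of 2.27 ± 0.46 (SE) and an adjusted p of 0.0266. For these genes replicate 1 was the lowest of its group at both times and replicate 3 the highest at 24 h. AATK, a kinase named for apoptosis, rose by 2.08, FAXDC2, a fatty acid hydroxylase domain protein, by 1.93, the potassium channel KCNA2 by 1.71 and the homeobox gene TLX1 by 1.64.

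Among the falls, PTHLH (ENSG00000087494, chr12:27958084-27972705, minus strand), which encodes parathyroid hormone-related protein, stood at 46.2, 15.3 and 22.1 CPM at 8 h and 6.39, 3.97 and 3.19 CPM at 24 h, with a log2 fold change of -2.62 ± 0.52 (SE) and an adjusted p of 0.0248. Replicate 1 of 8 h was far above the other 8 h libraries. The carboxypeptidase CPA4 stood at 30.2, 11.4 and 12.98 CPM at 8 h and 6.60, 3.41 and 1.45 CPM at 24 h, with a log2 fold change of -2.25 ± 0.52 (SE) and an adjusted p of 0.0374. SH3RF2, a ring finger protein, and RTL9, a gene derived from a retrotransposon, fell with changes of -2.01 and -1.91. The noncoding LINC00707 had a change of -2.28. RPSAP52, a transcribed pseudogene, had a change of -2.72, uncertain because reads may be shared with its parent gene. TFPI2, a protease inhibitor of the matrix, APOLD1, an apolipoprotein L domain protein, and FRMPD4, a scaffold protein, had among the smallest p-values, with changes of -0.77, -1.01 and -1.49. PTHLH and TLX1 have opposite-strand overlaps of 10.5% and 10.8%.

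Of 5 tested markers of other cell types, 3 rose (60%, against 2.84% over all tested genes). Among them, SNAP25, a protein of synaptic vesicle release, stood at 7.49, 13.8 and 13.02 CPM at 8 h and 20.7, 24.7 and 25.9 CPM at 24 h, with a log2 fold change of 1.05 ± 0.25 (SE) and an adjusted p of 0.0389, and VWF, of the endothelium, rose by 1.49. VWF lay between 0.318 and 1.58 CPM in the 6 libraries. MBP, the myelin basic protein gene, had at most 19 counts in a library. The 12 markers in the table summed to between 112 and 199 CPM at 8 h and between 301 and 462 CPM at 24 h. The 9 least abundant of them summed to between 1.27 and 1.87 CPM at 8 h and between 2.84 and 3.40 CPM at 24 h. The part of these genes in the other results was not tested.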

How the data were processed

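Total RNA of LN229 cells was sequenced from 9 libraries in 3 groups of 3. The authors deposited a table of raw counts per Ensembl gene (23727 genes), and STAR 2.7.4a, bcl2fastq 2.20.0.422 and the GRCh38 build are named in the submitters' processing notes. The counting program and its strand setting are not given in the sources used here. Symbols covered 19733 genes, and coordinates came from GENCODE 29 (98% of genes).

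Counts were filtered with filterByExpr (15273 genes left; 678 had none), scaled by TMM and modelled in R 4.3.3 by edgeR 4.0.16, with a mean for each group and all 9 libraries sharing the spread. The contrast of 24 h minus 8 h used the quasi-likelihood test, two-sided, with Benjamini-Hochberg adjustment over all tested genes and a threshold of 0.05. Standard errors are the fold change divided by the root of the F statistic. DESeq2 1.42.0 was an alternative. Principal components used log2 CPM with a prior count of 2.

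On simulated data for this comparison (15273 genes, 200 changed), 24.0%, 72.0%, 86.0% and 96.0% of genes changed by 0.5, 1, 1.5 and 2 on the log2 scale were recovered, with 9 false calls. The simulated libraries were drawn independently, with no effect shared by libraries of the same replicate number. The rates of recovery and of false calls may therefore differ in the real libraries. At the depth of these libraries, 3 counts are 0.126 to 0.135 CPM.

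Within groups, libraries differed by more than sampling noise (chi-square per degree of freedom 8.11 to 22.3), so none was treated as a repeat of another. The 38 gene lists (1258 entries, 1142 genes tested) and the members were chosen with earlier results of these data known. Among called genes with a mean of at least 5 CPM and no overlap, the 12 largest rises, the 12 largest falls and the 8 smallest p-values are named. From each list, up to 4 called members with the smallest p are named, and members that mark a step of a pathway whether called or not. The latter, and other genes outside the rule, were chosen after their values were seen. Some genes that met the rule are left out here and none took their place. Promoters came from RefSeq (GRCh38.p14), with 27305 promoters, 11151 of them of tested genes. Alternatives were another scaling, no filter, 6 libraries only, a replicate block, robust dispersion and leaving out each library.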

Additional observations from a re-analysis of the deposited data

How the results depend on the processing

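Among 2662 values of 121 named genes under the alternatives, 0 reversed direction. All 121 were called genes whose groups did not overlap, so a reversal was unlikely by the way they were chosen. Without 8 h replicate 1, 24 h replicate 2 or 24 h replicate 3, 0 of the 121 passed with edgeR when no replicate block was used. With the replicate number as a block, from 107 to 120 of the 121 passed when a formate library was left out. The 696 called genes became 1787 with the 6 formate libraries alone, and 1486 with DESeq2's Wald test. Leaving out a library gave from 0 to 2545 genes. The replicate numbers were not taken to pair the libraries: deviations from the group means correlated between 8 h and 24 h at 0.423, 0.0367 and 0.404 for numbers 1, 2 and 3, and replicate 2 of 24 h correlated best with replicate 3 of 8 h (0.134). With the replicate number as a block, 3130 genes passed (1799 higher, 1331 lower), all 696 among them, and 4810 with the 6 libraries alone. The blocked fit gave 2075, 1629 and 1179 genes without replicates 1, 2 and 3 of 8 h, and 2210, 2206 and 1846 without those of 24 h. Of 760 list medians under an alternative, 76 moved by more than 1 SD between libraries. In fits without a library, its group is represented by 2 samples. At this depth genes under 1 CPM had a median standard error of 0.39, against 0.12 over 100 CPM, so differences at low levels were less often detectable. The cause of the dependence on single libraries was not tested.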

Other observations

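Further gene lists were put together after their values had been seen, so their counts are a description only. Of 27 tested genes of the oligodendrocyte lineage and myelin, 10 rose and 1 fell (median log2 fold change 0.79, against 0.02 over all tested genes). MYRF, the transcription factor of myelin genes, stood at 5.13, 6.61 and 8.72 CPM at 8 h and 12.7, 14.9 and 20.9 CPM at 24 h, with a log2 fold change of 1.24 (SE 0.27) and an adjusted p of 0.0310 with edgeR. GPR37, a receptor of that lineage, rose by 1.03, and MAG, a myelin adhesion protein, rose as well. PMP22, a peripheral myelin protein, was the 1 that fell, with a change of -0.51. Of 25 genes of the neuronal cytoskeleton and neural adhesion, 11 rose and 0 fell (median 0.32). The share called was 40.7% in the oligodendrocyte list and 44% in the neuronal list, against 4.56% over all tested genes. TUBA1A, an alpha tubulin of young neurons, stood at 45.8, 68.9 and 72.97 CPM at 8 h and 125, 151 and 179 CPM at 24 h, with a change of 1.27, and the adhesion protein NRCAM rose by 1.30. TUBA1A has an opposite-strand overlap of 14.3% of its exons.

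Of 4 tested guanylate-binding proteins, GTPases induced by interferon gamma, 3 rose (median 1.35). GBP2 stood at 10.3, 19.99 and 18.6 CPM at 8 h and 38.3, 52.4 and 52.4 CPM at 24 h, with a change of 1.55 (SE 0.28). Of 28 semaphorins and plexins, 4 rose and 1 fell: the secreted semaphorin SEMA3B rose by 0.96 and the receptor NRP1 fell with a change of -0.63. Of 31 co-chaperones of HSP90 and HSP70 and subunits of the chaperonin CCT, 4 fell and 0 rose, 29 lay below 0 and the median was -0.28. BAG3, which links HSP70 to autophagy, had a change of -0.59. Of 32 proteasome subunits, 2 fell (PSMD3 and PSMD11, both with a change of -0.57), 31 lay below 0 and the median was -0.38. The shares called were 75% for guanylate-binding proteins, 17.9% for semaphorins and plexins, 12.9% for co-chaperones and CCT and 6.25% for the proteasome. Over all tested genes 4.56% were called and 47.9% lay below 0.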
